A study of Mus musculus with 4 samples.

Results

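The 10 genes described here encode interleukin-1 (IL-1) family cytokines, their natural inhibitors and the core of the inflammasome. They were taken as a list of known function, without a rule on their measured values, though earlier results of these data were known. The genes were Il1a, Il1b, Il1rn, Il1r2, Il18, Il18bp, Nlrp3, Pycard, Casp1 and Gsdmd, 10 of the 12596 genes in the count table, and all 10 had a row in it. Each was followed in colon monocytes and macrophages of 4 male C57/Bl6N mice, of which 2 (mice 14 and 15) had received 12 µg of diesel exhaust particles (DEP) in 200 µL of PBS by gavage on 5 days of the week over about 6 months and 2 (mice 2 and 3) had received PBS alone. No mouse carried a transgene or a deletion according to the labels. Lamina propria cells were sorted as CD11b+ and Ly6C+ or CD64+, and each mouse was loaded into a well of its own, so that differences between wells and between mice cannot be told apart. The question was whether oral DEP alters these transcripts, and in which cells.

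IL-1α and IL-1β, encoded by Il1a and Il1b, signal through the same IL-1 receptor. Their action is limited by the IL-1 receptor antagonist, the product of Il1rn, which occupies that receptor without signalling, and by the decoy receptor encoded by Il1r2, which captures the cytokine. IL-18 is held in check in the same manner by the soluble IL-18 binding protein, the product of Il18bp. The sensor NLRP3 and the adaptor ASC, encoded by Pycard, assemble into an inflammasome that activates caspase-1, and caspase-1 cleaves the precursors of IL-1β and IL-18 as well as gasdermin D, which then forms pores in the cell membrane. Macrophages of the colon are known to hold precursor IL-1β at rest. The counts below are of transcripts and do not measure cleavage or release.

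Of 943 cells, 757 were retained once cells carrying at least 3 detected markers of the B or plasma, T, NK or innate lymphoid, epithelial, or stromal or endothelial lists had been left out. A UMI is a unique molecular identifier, which counts a transcript molecule once. The share left out was 22.2% and 25.4% in DEP mice 14 and 15 and 12.0% and 15.9% in PBS mice 2 and 3, and 170 of the 186 cells left out carried B or plasma cell markers, mostly immunoglobulin transcripts. Each mouse had between 618112 and 885187 UMIs in retained cells, with a median of 2651 to 4330 per cell, and 1 cell barcode occurred in more than 1 mouse. Retained cells were assigned to 2 classes that may overlap. Plac8-high cells had 2 or more UMIs of Plac8, a gene of monocytes, and C1q-high cells had at least 0.5% of their UMIs from C1qa, C1qb and C1qc, genes of resident macrophages. There were 178 Plac8-high and 609 C1q-high cells, 46 cells met both rules and 16 met neither.

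Plac8-high cells made up 32.0% and 26.9% of the retained cells in DEP mice 14 and 15 and 19.3% and 16.2% in PBS mice 2 and 3. C1q-high cells made up 77.6% and 73.5% upon DEP and 88.6% and 84.3% upon PBS. The mice of the groups did not overlap in either share, and an exact two-sided permutation test gave p = 0.333, which is the smallest p that 2 mice against 2 allow. The classes bore their labels in genes the rules did not use. Ly6c2, a monocyte surface protein gene, had 383 to 920 CPM (UMIs of the gene per 1000000 UMIs of the library) in the Plac8-high cells of the 4 mice and 6.38 to 99.8 CPM in their C1q-high cells, and the mannose receptor gene Mrc1 had 19.5 to 134 CPM and 248 to 332 CPM in the same order. Neutrophils also make several of these genes. Of 12 neutrophil markers, 5 had a row in the table and the other 7 were not analysed here. Mmp9 and Ngp had no UMI in Plac8-high cells of any mouse, and Lcn2 was detected there in mouse 14 alone. The other 2, Mmp8 among them, were detected there in all 4 mice. The 5 markers summed to between 86.1 and 198 CPM in Plac8-high cells and between 34.5 and 67.7 CPM in C1q-high cells.

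Il1b was by far the most abundant of the 10 transcripts. UMIs were counted at the transcripts' 3′ ends and do not scale with length, so that levels of different genes are given on one scale, CPM with trimmed mean of M-values (TMM) library scaling. Over all retained cells Il1b had 2765 and 3986 CPM in DEP mice 14 and 15 and 4653 and 3218 CPM in PBS mice 2 and 3. At least 1 Il1b UMI was found in 658 of 757 cells, or 86.9% (exact 95% binomial interval 84.3% to 89.2%). All intervals on shares of cells cover counting error only.

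Pycard, the adaptor gene, followed with 247 to 287 CPM in the 4 mice and a UMI in 55.6% of cells. Next came Il1rn with 63.8 to 223 CPM, Il1r2 with 68.6 to 178, Nlrp3 with 59.8 to 152, Gsdmd with 51.3 to 78.1 and Casp1 with 56.9 to 71.1 CPM, and the ranges of these 5 genes overlapped. The scarcest were Il1a with 20.4 to 54.8, Il18 with 13.7 to 33.8 and Il18bp with 6.84 to 31.3 CPM, whose ranges overlapped as well. Il1b and Pycard were the only members whose ranges over the 4 mice stood clear of all others.

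Free RNA in the droplets can place a UMI in a cell that does not make the transcript. In 14 cells with B or plasma cell markers other than immunoglobulins, at a median of 6758.5 UMIs per cell against 3401 in the retained cells, 42.9% had a UMI of Il1b (17.7% to 71.1%). After every cell had been thinned to 1000 UMIs the shares were 42.9% there and 74.5% in the retained cells. The unthinned shares in these 14 cells were 50% for Pycard, 21.4% for Il1r2, 21.4% for Casp1, 14.3% for Il1rn, 14.3% for Gsdmd and 7.14% for Nlrp3, against 55.6%, 18.4%, 20.6%, 19.9%, 19.9% and 29.2% in the retained cells. After thinning they were 0% against 8.19% for Il1rn and 7.14% against 7.27% for Il1r2. Whether these 14 cells make any of these transcripts themselves was not tested. Shares of cells with a UMI of Pycard, Il1r2, Casp1, Gsdmd or Il1rn are therefore not read as shares of expressing cells. Il1a, Il18 and Il18bp had 0 of 14, which allows a share of up to 21.4%.

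**Figure D1:**
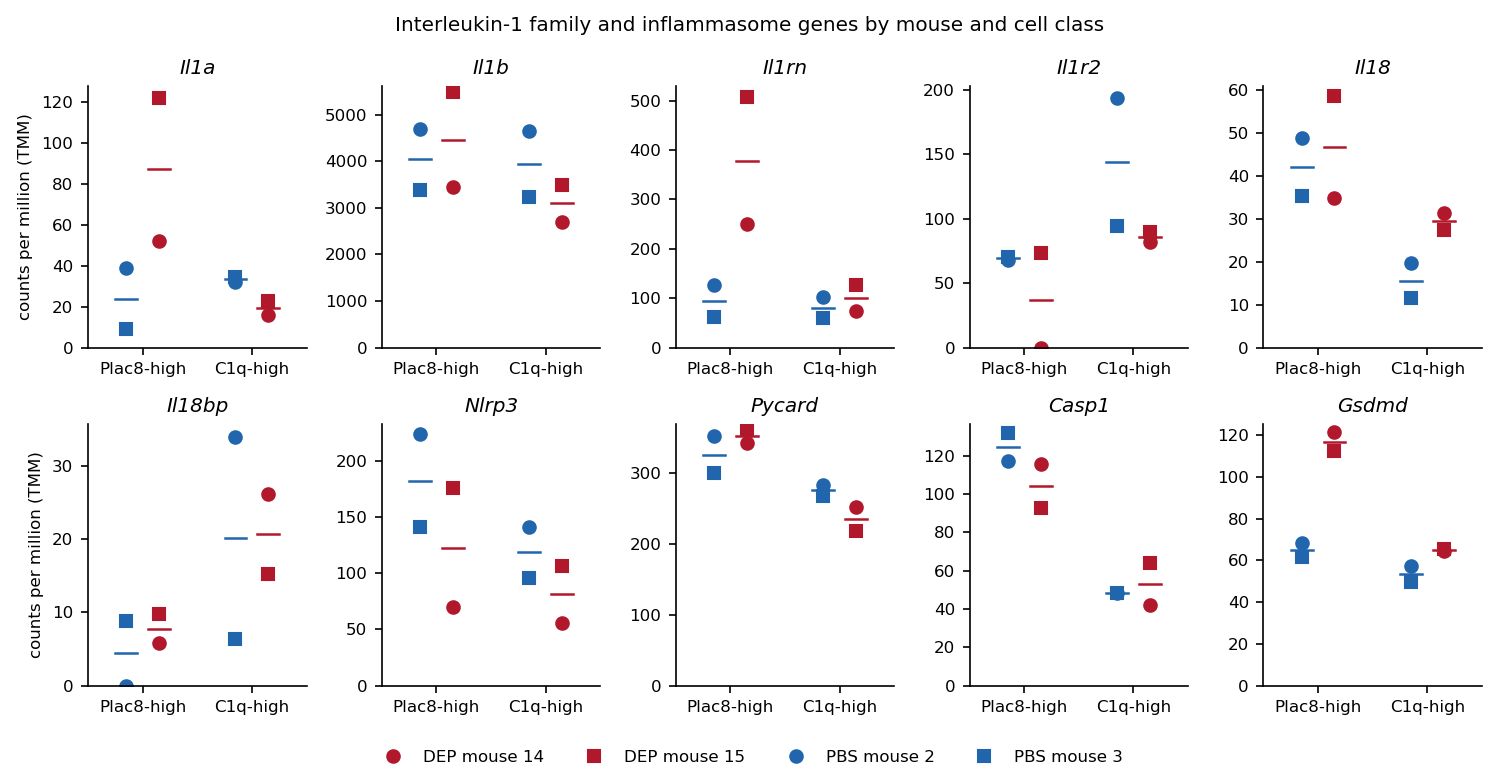
CPM (TMM) of each of the 10 genes, in Plac8-high and C1q-high cells, with 1 point per mouse (red, DEP mice 14 and 15; blue, PBS mice 2 and 3) and a line at the mean of 2 mice. Each panel has its own axis, which starts at 0. Il1rn in Plac8-high cells stands at 249 and 507 upon DEP and at 127 and 61.6 upon PBS, whereas the mice of the groups overlap for Il1b in both classes.

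In Plac8-high cells the IL-1 receptor antagonist gene Il1rn stood higher in both DEP mice than in both PBS mice, Il1a did likewise at far lower counts, and Il1b did not separate the groups. None of the 9 members tested passed an adjusted p of 0.05, and 2 had an unadjusted p under 0.05. Il1rn had 249 and 507 CPM in DEP mice 14 and 15 and 127 and 61.6 CPM in PBS mice 2 and 3, from 43, 104, 13 and 7 UMIs. The groups did not overlap. The log2 difference of DEP from PBS was 2.02 ± 0.43 (SE, 2 mice per group; 95% interval 1.09 to 2.95), with an adjusted p of 0.605 in edgeR's quasi-likelihood test. Over the 4952 genes tested there was no call, 0% in either direction, 264 genes (5.33%) had an unadjusted p under 0.05, and DESeq2 made 0 calls. The size of the Il1rn difference, 1.42 to 2.61 over 13 alternative settings, was positive in all of them, but its call was not stable. It was called when the 46 cells of both classes were left out (2.23, adjusted p = 0.00145 by edgeR), without a filter on low counts (4.06e-05), without DEP mouse 14 (9.09e-06) and without PBS mouse 2 (0.000209), and it was not called in the other 9.

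Il1a had 9 and 25 UMIs in the Plac8-high cells of DEP mice 14 and 15 and 4 and 1 in those of PBS mice 2 and 3, or 52.2, 122, 39.0 and 8.80 CPM. Both DEP mice were above both PBS mice, and the log2 difference was 1.90 ± 0.70 (SE; adjusted p = 0.875, edgeR). Of the 25 UMIs in mouse 15, 18 came from 1 cell. Il1b, the other agonist, had 3443 and 5479 CPM upon DEP and 4692 and 3388 CPM upon PBS. The groups overlapped and the log2 difference was 0.14 (95% interval −0.39 to 0.67).

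The decoy receptor gene Il1r2 had no UMI in 47 Plac8-high cells of DEP mouse 14, which allows a share of cells with a UMI, not of cells expressing it, of up to 6.38%, and 73.2 CPM in DEP mouse 15, 68.3 in PBS mouse 2 and 70.4 in PBS mouse 3. Mouse 14 alone stood apart, and the log2 difference of −0.82 ± 0.82 (SE) became 0.07 without it. Gsdmd, the pore-forming effector gene, had 122 and 112 CPM upon DEP and 68.3 and 61.6 CPM upon PBS. The groups did not overlap, with a log2 difference of 0.84 ± 0.42 (SE; adjusted p = 0.875, edgeR). Il1rn, Il1a and Gsdmd were the members higher in both DEP mice, and Casp1 was the member lower in both, at 116 and 92.7 against 117 and 132 CPM. Such separation was found upward in 17.3% and downward in 18.1% of all genes tested. Nlrp3, Pycard and Il18 overlapped between the groups, and Il18bp was not tested with 1, 2, 0 and 1 UMIs.

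In C1q-high cells none of the 10 members was called by edgeR either, and 3 had an unadjusted p under 0.05. Among 5381 genes there were 0 calls (0%), 299 genes (5.56%) had an unadjusted p under 0.05, and DESeq2 made 0 calls. Il1b had 2691 and 3500 CPM in DEP mice 14 and 15 and 4651 and 3226 CPM in PBS mice 2 and 3. The values overlapped, and the log2 difference was −0.35 ± 0.15 (SE; adjusted p = 0.844, edgeR). Without DEP mouse 15 it was −0.55 with an adjusted p of 0.00848 (edgeR), and without PBS mouse 2 it was −0.0592. Without DEP mouse 14 it was −0.17 and without PBS mouse 3 −0.59, both without a call. Il1a had 15.7 and 22.8 CPM upon DEP and 32.2 and 34.5 CPM upon PBS, both DEP mice below both PBS mice, with a log2 difference of −0.78 ± 0.37 (SE; adjusted p = 0.873, edgeR).

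Il1r2 in C1q-high cells had 81.9 and 89.7 CPM upon DEP and 193 and 94.6 CPM upon PBS. Both DEP mice were lower, PBS mouse 2 stood far above the other 3 mice, and the log2 difference was −0.71 ± 0.28 (SE; adjusted p = 0.801, edgeR). Without PBS mouse 2 it was −0.14, and without PBS mouse 3 it was −1.17. Il18, the other caspase-1 substrate among the cytokines, had 31.4 and 27.4 CPM upon DEP and 19.7 and 11.5 CPM upon PBS, from 18, 18, 11 and 9 UMIs. Both DEP mice were higher, with a log2 difference of 0.96 ± 0.41 (SE; adjusted p = 0.837, edgeR). Il1rn had 74.9 and 126 CPM against 102 and 60.1 CPM and overlapped between the groups. Gsdmd was higher and Pycard lower in both DEP mice, by log2 0.29 and −0.23. In all, 2 members lay higher and 3 lower in both DEP mice, where 17.3% and 18.5% of all genes did so.

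Summed over all retained cells, no member was called by edgeR or DESeq2, and 3 had an unadjusted p under 0.05. Of 5300 genes, edgeR called 1 (0.0189%), which was Plac8, the gene that defines a class, and 336 (6.34%) had an unadjusted p under 0.05. The largest differences were those of Il1rn, at 96.3 and 223 CPM upon DEP and 104 and 63.8 CPM upon PBS, of Il18, at 30.7 and 33.8 against 21.4 and 13.7 CPM, and of Il1r2, at 68.6 and 94.4 against 178 and 92.3 CPM. Of these only Il18 separated the groups, as 17.6% of all genes did upward. The log2 differences were 0.98, 0.93 and −0.68, each with an adjusted p of 0.751 in edgeR. Il1rn was called without DEP mouse 14 (1.44, adjusted p = 8.27e-07), where it stood at 0.25 without DEP mouse 15, and also without a filter on low counts (adjusted p = 0.0041). Nlrp3, at −0.42 (adjusted p = 0.856, edgeR), was called without DEP mouse 15 (−1.04, adjusted p = 0.0286), stood at −0.70 without PBS mouse 3, and was near 0 without DEP mouse 14 (−0.0212) or PBS mouse 2 (−0.14). The share of Plac8-high cells was higher in both DEP mice too, and in such sums more cells of a class and more RNA per cell cannot be told apart.

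Between the classes, 3 members were called, Il1rn, Il1r2 and Casp1. To compare them within each mouse, cells of both classes were left out and the mouse was a block, which leaves 132 cells that were Plac8-high only and 563 that were C1q-high only. By edgeR's quasi-likelihood test Il1rn and Casp1 were higher and Il1r2 was lower in Plac8-high cells, 3 of 10 members tested, where 20.4% of all 5818 genes were called, 8.9% higher and 11.4% lower, and 30.3% had an unadjusted p under 0.05. The share of members is near that background. The median log2 difference of the 10 members was 0.42, against −0.10 over all genes tested.

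Casp1, the protease gene, had 132, 92.98, 162 and 133 CPM in Plac8-high-only cells of mice 14, 15, 2 and 3 and 42.4, 71.3, 55.6 and 53.5 CPM in their C1q-high-only cells. It was higher in all 4 mice, by log2 1.12 ± 0.28 (SE; adjusted p = 0.00137, edgeR), and all 4 mice lay on that side for 13% of genes. Il1r2 had 0, 65.6, 0 and 71.4 CPM in Plac8-high-only cells against 105, 99.8, 225 and 108 CPM. It was lower in all 4 mice, with a fitted log2 difference of −1.56 ± 0.36 (SE; adjusted p = 0.000694, edgeR), and all 4 mice lay on that side for 24.1% of genes. The difference lay between −2.36, without DEP mouse 15, and −1.12, without PBS mouse 2, when 1 mouse was left out. In 2 of the mice it had no UMI in 31 and 16 cells, which allows shares of cells with a UMI of up to 9.68% and 18.8%, again not of cells expressing it.

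Il1rn stood higher in the Plac8-high-only cells of the DEP mice, and level between the classes or lower in those of the PBS mice. It had 203 and 514 CPM in Plac8-high-only cells of DEP mice 14 and 15 and 51.3 and 130 CPM in their C1q-high-only cells, a log2 ratio of 1.98 in each. In PBS mice 2 and 3 it had 81.1 and 71.4 CPM against 109 and 69.8 CPM, log2 ratios of −0.43 and 0.03. The class difference over the 4 mice was 1.31 ± 0.25 (SE; adjusted p = 3.9e-05, edgeR), and without DEP mouse 15 it was 0.75 with an adjusted p of 0.118. DESeq2 called Casp1 (adjusted p = 0.0367) and neither Il1rn (0.14) nor Il1r2 (0.191), and among cells thinned to 1000 UMIs edgeR called Il1rn and neither Casp1, whose difference was then 0.32, nor Il1r2. Il1a, at 1.05 without a call, was called without PBS mouse 2 (1.38, adjusted p = 0.0453, edgeR) and without PBS mouse 3 (1.65, adjusted p = 0.00264), but turned to −0.30 without DEP mouse 15 and to −0.15 without its highest cell in each library. Il1b had a log2 difference between the classes of −0.13 (95% interval −0.40 to 0.13), and Pycard one of 0.16 (−0.21 to 0.53). Nlrp3 was higher in Plac8-high-only cells in all 4 mice, by log2 0.29 to 0.57 within a mouse, without a call (adjusted p = 0.208, edgeR).

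**Figure D2:**
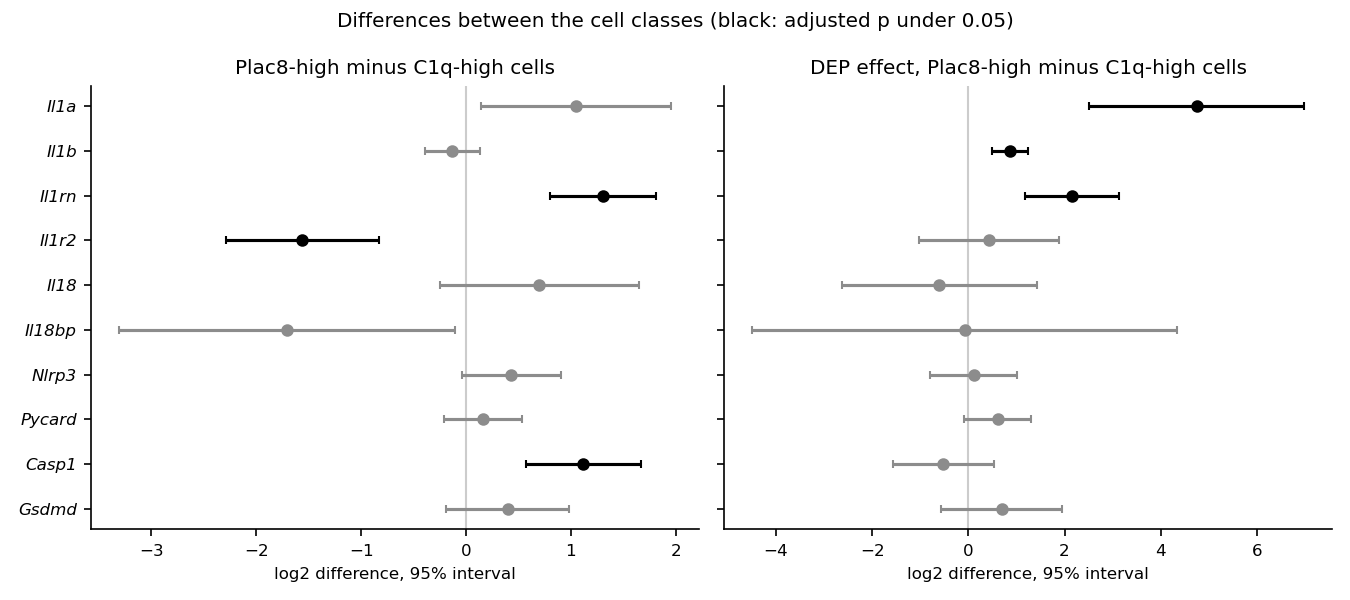
Fitted log2 differences of the 10 genes with 95% intervals, on the left between Plac8-high-only and C1q-high-only cells and on the right between the DEP effects in these classes (interaction). Black marks an adjusted p under 0.05 in edgeR's quasi-likelihood test, which on the left holds for Il1rn, Il1r2 and Casp1 and on the right for Il1a, Il1b and Il1rn. The axes differ in range, and the intervals on the right rest almost wholly on the spread shared by all genes.

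Whether the difference between DEP and PBS mice was the same in both classes was tested as the interaction of treatment and class in the same 8 libraries. By edgeR's test, Il1a, Il1b and Il1rn were called, each in the direction of a higher DEP effect in Plac8-high cells, as were 22 of 5818 genes (0.378%), 19 higher (0.327%) and 3 lower (0.0516%), with 5.88% at an unadjusted p under 0.05. Il1b had 3074 and 5393 CPM in Plac8-high-only cells upon DEP and 3115 and 2643 CPM upon PBS, and 2899 and 3856 CPM in C1q-high-only cells upon DEP and 5136 and 3561 CPM upon PBS. Within a mouse, its log2 ratio of Plac8-high-only to C1q-high-only cells was 0.08 and 0.48 in the DEP mice and −0.72 and −0.43 in the PBS mice. The ratios did not overlap, which upward was so for 23.2% of genes, and the interaction was 0.86 ± 0.19 (SE; adjusted p = 0.00478, edgeR). For Il1rn, with the ratios given above, it was 2.15 ± 0.50 (SE; adjusted p = 0.00744). For Il1a it was 4.75 ± 1.14 (SE; adjusted p = 0.0121) from 5, 24, 0 and 1 UMIs in Plac8-high-only cells and 5, 14, 14 and 27 UMIs in C1q-high-only cells of mice 14, 15, 2 and 3, so that this value depends on the few counts of the PBS mice and on 1 cell of DEP mouse 15, which held 18 of its 24 UMIs.

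These 3 calls rested on the test and on single mice. The design leaves 2 residual degrees of freedom, and edgeR took the spread of each gene almost wholly from that of all genes (11636 degrees of freedom in all). DESeq2 gave differences of 4.71, 0.82 and 2.12 for Il1a, Il1b and Il1rn with an adjusted p of 1 for each, and called no gene. No member was called with all 943 deposited cells, after thinning, without DEP mouse 15 or without PBS mouse 2, and Il1b alone was called without PBS mouse 3. The 3 differences were positive under all alternatives in which they were tested, and that of Il1a reached 8.52 without PBS mouse 3. Igkc and H2-Aa moved in the same direction, whereas the dendritic cell markers overlapped between the groups in Plac8-high-only cells. F13a1, a gene of the monocyte list, was called in the opposite direction (−2.16, adjusted p = 0.000166, edgeR). The immunoglobulin gene Igkc was itself called (2.10, adjusted p = 0.00342, edgeR), at 242 and 456 CPM upon DEP and 40.0 and 101 CPM upon PBS in Plac8-high-only cells. Igkc was also among the markers by which cells were left out, so that its values depend on that rule. The 5 dendritic cell markers in the table, of 7 listed, summed to 116 and 295 CPM upon DEP and to 0 and 180 CPM upon PBS there. Clec9a was at 0 in all 4 mice, and Cd209a was at 58.2, 220, 0 and 158 CPM in mice 14, 15, 2 and 3. The MHC class II gene H2-Aa, counted here among the resident macrophage markers, was called as well (0.95, adjusted p = 0.000166, edgeR). H2-Eb1, H2-Ab1 and Cd74 were called in the same direction. Other macrophage genes did not rise with H2-Aa in Plac8-high-only cells. Adgre1 was lower in both DEP mice, at 155 and 139 against 200 and 237 CPM. Mrc1, at 29.1 and 5.78 against 0 and 45.1 CPM, overlapped between the groups. Csf1r did so too, at 398 and 358 against 360 and 417 CPM. Whether any of these genes had a part in the result was not tested.

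Il1a, Il1b and Il1rn lie on chromosome 2 (GRCm38), Il1a at 129299610 to 129309972 and Il1b at 129364570 to 129371139 on the minus strand, and Il1rn at 24336853 to 24351494 on the plus strand. The other members lie elsewhere, Il1r2 on chromosome 1, Il18 and Casp1 on chromosome 9, Il18bp and Pycard on chromosome 7, Nlrp3 on chromosome 11 and Gsdmd on chromosome 15. As these 3 genes moved together in the interaction, the promoter windows are shown, from 250 bases before to 50 bases after the RefSeq start (GRCm38.p6), 5′ to 3′ on the strand of the gene. Il1rn has 3 starts, of which the first and the last are given, and counts of 3′ ends cannot tell them apart. Capitals mark matches on either strand to a κB word (GGG and TTCC, 3 bases apart), an AP-1 word (TGANTCA), a PU.1 word (GAGGAA) or a TATA word (TATAAA). The windows are as follows.
Il1b, chr2:129371090-129371389, minus strand: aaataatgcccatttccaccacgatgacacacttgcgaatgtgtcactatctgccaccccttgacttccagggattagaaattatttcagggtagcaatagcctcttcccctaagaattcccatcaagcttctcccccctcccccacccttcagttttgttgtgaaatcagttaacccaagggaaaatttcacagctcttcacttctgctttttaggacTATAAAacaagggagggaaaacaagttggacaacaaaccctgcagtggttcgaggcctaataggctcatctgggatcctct
Il1a, chr2:129309923-129310222, minus strand: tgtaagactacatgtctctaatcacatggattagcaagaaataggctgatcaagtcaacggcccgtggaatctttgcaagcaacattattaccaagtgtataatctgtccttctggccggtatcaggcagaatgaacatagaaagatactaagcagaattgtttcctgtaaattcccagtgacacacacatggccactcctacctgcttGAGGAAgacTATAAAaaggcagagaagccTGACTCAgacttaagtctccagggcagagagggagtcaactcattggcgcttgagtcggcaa
Il1rn, first start, chr2:24336610-24336909, plus strand: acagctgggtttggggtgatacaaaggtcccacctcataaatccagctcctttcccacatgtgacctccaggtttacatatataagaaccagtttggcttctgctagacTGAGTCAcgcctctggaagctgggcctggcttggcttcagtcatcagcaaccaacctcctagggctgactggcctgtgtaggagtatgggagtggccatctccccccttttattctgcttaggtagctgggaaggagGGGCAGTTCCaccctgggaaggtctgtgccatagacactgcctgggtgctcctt
Il1rn, last start, chr2:24345121-24345420, plus strand: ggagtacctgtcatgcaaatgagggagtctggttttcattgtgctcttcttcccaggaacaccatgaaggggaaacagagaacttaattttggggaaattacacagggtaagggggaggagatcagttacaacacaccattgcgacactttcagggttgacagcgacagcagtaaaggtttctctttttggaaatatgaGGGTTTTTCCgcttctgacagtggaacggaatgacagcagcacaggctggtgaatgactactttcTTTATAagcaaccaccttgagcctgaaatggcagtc
Both agonist genes carried a TATA word on the sense strand, from position −31 in Il1b and −32 in Il1a, which 13.6% of 32851 promoter windows held somewhere. Both Il1rn windows held a κB word (5.555% of windows), from −4 at the first start and −51 at the last, and neither agonist window did. An AP-1 word (7.81% of windows) was found in Il1a from −12 and at the first Il1rn start from −141, and a PU.1 word (28.3%) in Il1a from −41. No 2 of these matches overlapped. They describe letters in these windows and not binding.

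The Il1rn UMIs of Plac8-high cells upon DEP came largely from a few cells with high counts. The share of Plac8-high cells with an Il1rn UMI was 23.4% (11 of 47) and 28.4% (19 of 67) in DEP mice 14 and 15 and 32.4% (11 of 34) and 16.7% (5 of 30) in PBS mice 2 and 3, so that the groups overlapped. The groups stood apart in the highest counts per cell. The highest cell held 12 and 25 UMIs upon DEP and 3 and 2 upon PBS, where fewer Plac8-high cells were counted. The top 3 cells in each DEP mouse held at least 50% of all Il1rn UMIs. In PBS mice 2 and 3 the top 5 and 2 cells did, so that concentration in few cells did not separate the groups. After each cell was thinned to 1000 UMIs, the shares were 23.4% and 14.9% upon DEP and 8.82% and 6.67% upon PBS. With the highest cell of each library left out, the log2 difference in Plac8-high cells was again 2.02 (adjusted p = 0.58, edgeR), and the interaction was 2.19 with an adjusted p of 0.0537, while that of Il1b was 1.08 with an adjusted p of 6.74e-05.

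Of the Plac8-high cells with an Il1rn UMI, 11 of 11, 18 of 19, 11 of 11 and 4 of 5 in mice 14, 15, 2 and 3 also had one of Il1b, where 88.2% of all Plac8-high cells did. Il1b was spread over more cells. Its median per Plac8-high cell was 14.6 and 34.3 UMIs per 10000 UMIs of the cell in DEP mice 14 and 15 and 36.9 and 22.7 in PBS mice 2 and 3, and per C1q-high cell it was 16.8 and 18.2 upon DEP and 38.8 and 24.1 upon PBS. The medians in C1q-high cells were lower in both DEP mice, while the highest Plac8-high cell in each group reached 241 upon DEP and 139 upon PBS.

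**Figure D3:**
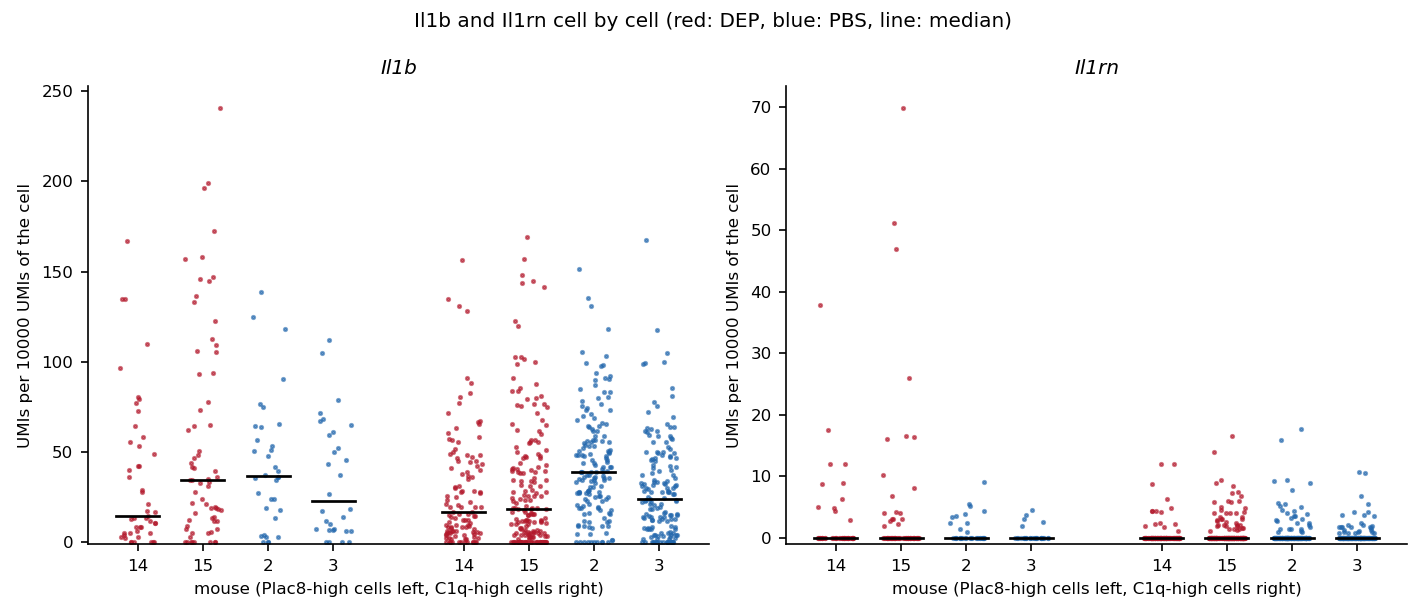
Il1b (left) and Il1rn (right) in single cells, as UMIs per 10000 UMIs of the cell, with 1 point per cell, a line at the median, and the mice in the order 14, 15, 2, 3 for Plac8-high and then for C1q-high cells (red, DEP; blue, PBS). The Il1rn medians are 0 in all 8 columns, and the cells above 20 are Plac8-high cells of the DEP mice.

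The classes also contributed unequally to the transcripts of each gene. Upon DEP, cells that were Plac8-high only gave 18.1% of all UMIs but 45.5% of the 257 Il1rn UMIs and 47.5% of the 61 Il1a UMIs. Of these 29 Il1a UMIs, 18 came from 1 cell of mouse 15, and without it the share was 11 of 43, or 25.6%, while that of Il1rn was 39.7% without its highest cell. Upon PBS they gave 9.22% of all UMIs, 10.1% of the 119 Il1rn UMIs and 2.17% of the 46 Il1a UMIs. For Il1b they gave 25.1% of 5313 UMIs upon DEP and 7.99% of 5646 UMIs upon PBS. These are sums over 2 mice, given without a test. C1q-high-only cells gave 87.4% of the Il1r2 and 90.6% of the Il18bp UMIs of all mice, where they gave 79.1% of all UMIs.

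**Figure D4:**
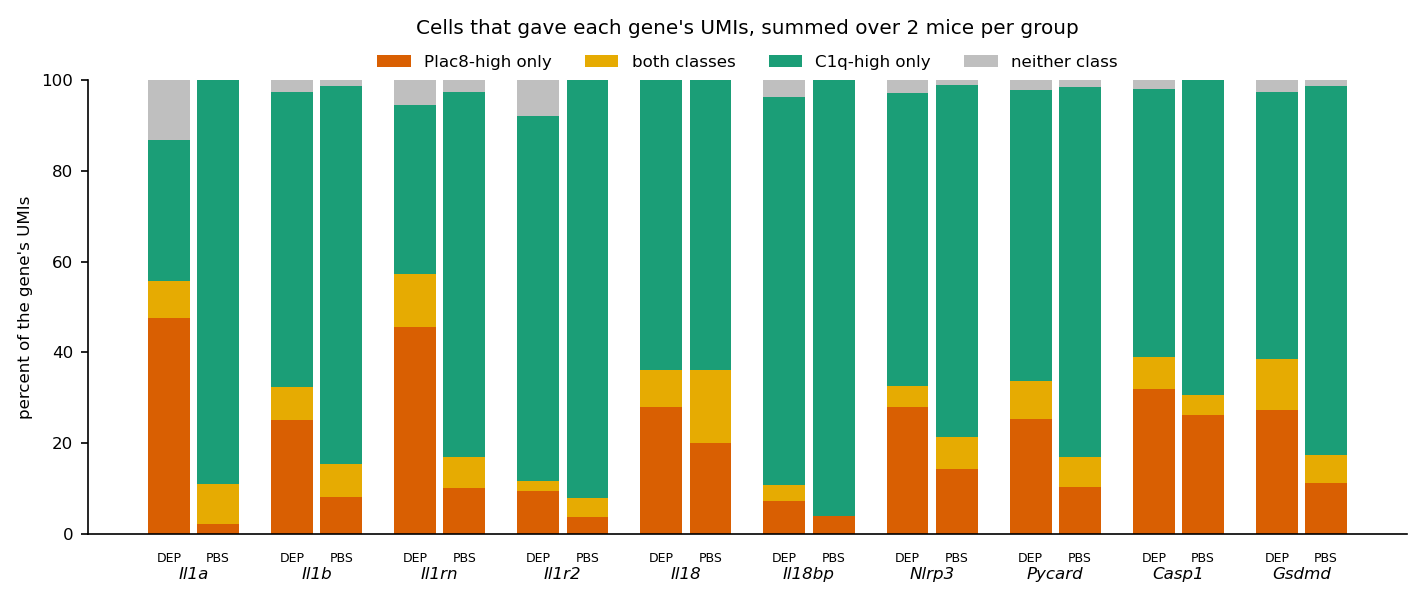
Percent of each gene's UMIs by the class of the cell they came from, summed over the 2 DEP mice (left bar) and the 2 PBS mice (right bar). Plac8-high-only cells make up 45.5% of Il1rn upon DEP and 10.1% upon PBS, and C1q-high-only cells make up most of Il1r2 and Il18bp in both groups.

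The balance of agonist to antagonist is given as the ratio of summed UMIs of Il1a and Il1b to those of Il1rn. In Plac8-high cells it was 14.02 and 11.04 in DEP mice 14 and 15 and 37.3 and 55.1 in PBS mice 2 and 3. Both DEP mice had more antagonist transcript per agonist transcript, with 7.13 and 9.06 Il1rn UMIs per 100 agonist UMIs against 2.68 and 1.81. The log2 ratio averaged 3.63 ± 0.24 (SD, n = 2) in the DEP mice and 5.43 ± 0.37 (SD, n = 2) in the PBS mice. The difference, −1.80, lay between −2.06 and −1.54 when any mouse was left out. Of the 6 arrangements of 4 mice in 2 groups, 2 separate the groups fully. The separations of this and the following balances were not set against those of other gene pairs.

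In C1q-high cells the ratio was 36.1 and 27.9 upon DEP and 45.9 and 54.3 upon PBS. Again the mice did not overlap, and the mean log2 difference was −0.65. Under stricter class thresholds the difference was −0.40 and the mice overlapped. Cells of both classes count in both sums, and in C1q-high-only cells the ratios of 56.7 and 29.8 upon DEP and 47.4 and 51.6 upon PBS did overlap, whereas Plac8-high-only cells had 15.4 and 10.7 against 38.4 and 37.1. The overlap in C1q-high-only cells depended on which cells were left out. It was absent with all deposited cells (−0.53) and with B or plasma cell markers without immunoglobulin and J chain genes (−0.46). It remained after thinning (0.36), when shares of UMIs were averaged over cells (0.15) and under stricter thresholds (−0.26). Over all retained cells the ratio was 28.9 and 18.1 upon DEP and 45.1 and 50.9 upon PBS. The log2 ratio was lower in Plac8-high-only than in C1q-high-only cells of every mouse, by 1.88 and 1.47 in the DEP mice and 0.42 and 0.56 in the PBS mice.

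Against the decoy receptor Il1r2 the agonists stood at 33.04 and 39.3 to 1 in C1q-high cells upon DEP and at 24.2 and 34.5 to 1 upon PBS, which overlapped. In Plac8-high cells the ratio was 76.5 in DEP mouse 15 and 69.3 and 48.3 in the PBS mice, and 603 agonist UMIs stood against none of Il1r2 in DEP mouse 14. Il18 stood against Il18bp at 1.2 and 1.8 in C1q-high cells upon DEP and at 0.579 and 1.8 upon PBS, from at most 19 UMIs of either gene in a mouse. No difference in this balance was detectable at this depth. Over all retained cells the agonists stood at 40.6 and 42.8 to 1 of Il1r2 upon DEP and at 26.3 and 35.2 to 1 upon PBS. The balance to Il1r2 thus separated the groups in Plac8-high and in all retained cells, with both DEP mice higher. In Plac8-high cells it did not do so after thinning or when shares of UMIs were averaged over cells. The groups also overlapped in Plac8-high-only cells, where PBS mouse 2 had no Il1r2 UMI either. The balance of Il18 to Il18bp overlapped in each set of cells.

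**Figure D5:**
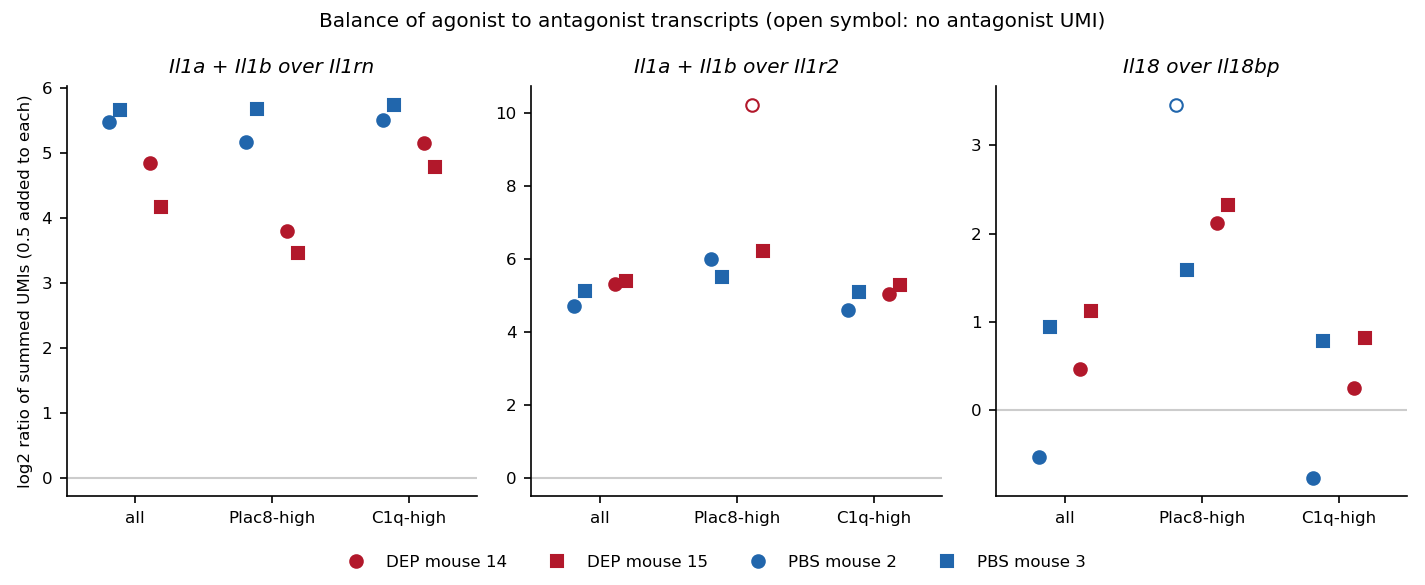
Log2 ratio of summed agonist to antagonist UMIs per mouse (0.5 added to each sum), over all retained, Plac8-high and C1q-high cells, for Il1a and Il1b over Il1rn, Il1a and Il1b over Il1r2, and Il18 over Il18bp. Red marks DEP and blue PBS mice, and open symbols mark libraries without an antagonist UMI. For Il1a and Il1b over Il1rn, both DEP mice lie below both PBS mice in each set of cells.

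Of 54 further genes of these pathways, 45 had a row in the table and the other 9 were not analysed here. They comprise IL-1 family ligands, receptors, receptor signalling, inflammasome sensors, partners and effectors, inhibitors, and priming genes. None passed the test between DEP and PBS in all retained cells (26 tested), in Plac8-high cells (27) or in C1q-high cells (26), nor in the interaction (29), by edgeR, and DESeq2 called 1 gene of the whole table over all retained cells and 0 in the other comparisons named. At an unadjusted p under 0.05 there were 2, 0, 1 and 3 pathway genes in the same order. The smallest p in Plac8-high cells was that of Myd88, the adaptor of IL-1 and Toll-like receptors, with a log2 difference of 0.83 ± 0.40 (SE; adjusted p = 0.875, edgeR), and in C1q-high cells that of the receptor gene Tlr2, with 0.62 ± 0.21 (SE; adjusted p = 0.8, edgeR). Over all retained cells it was again that of Myd88, with 0.69 ± 0.25 (SE; adjusted p = 0.751, edgeR). In the interaction it was that of Cd14, with 0.81 ± 0.23 (SE; adjusted p = 0.0978, edgeR), whose class differences overlapped between the groups. Of 7 receptor genes listed, 6 had a row and none passed the filter on low counts.

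Between the classes, 9 of 29 tested pathway genes were called, 6 higher and 3 lower in Plac8-high cells, against the 20.4% of all genes. Higher were Myd88 (log2 1.3), Irak2 (0.87), which acts downstream of MyD88, Tlr2 (0.83), and the inhibitors Card19 (1.09), Trim30a (1.0) and Serpinb1a (4.82, from at most 9 UMIs in a library). Myd88 had 150, 142, 64.9 and 91.8 CPM in Plac8-high-only cells of mice 14, 15, 2 and 3 and 44.6, 58.8, 44.5 and 37.1 CPM in C1q-high-only cells, so that every mouse was higher. Lower were P2rx7 (−2.61), the ATP receptor that triggers NLRP3, Txnip (−0.73), an NLRP3 partner, and Tnfaip3 (−0.66), the gene of the NF-κB inhibitor A20. P2rx7 had 1, 0, 1 and 1 UMIs in Plac8-high-only cells and 19, 25, 15 and 31 UMIs in C1q-high-only cells. The adjusted p of these 9 genes lay between 2.19e-05 for Card19 and 0.0486 for Irak2 in edgeR. For Irak2, Serpinb1a and Txnip the mice did not all lie on 1 side.

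Across the 757 cells, the genes most like Il1b among 5300 were Fth1, the ferritin heavy chain gene (Pearson r = 0.38 of log2(1 + UMIs per 10000)), Ccrl2 (0.34), Bcl2a1d (0.33), Rgs1 (0.32) and Srgn (0.31), and among the members Il1r2 (0.24), Il1rn (0.22) and Nlrp3 (0.22). Bcl2a1d has near-identical paralogs and its counts are uncertain. Most like Il1rn were Sod2, the mitochondrial superoxide dismutase gene (0.34), Ass1 (0.30), the chemokine gene Cxcl9 (0.29), Malt1 (0.29) and Ifi205 (0.26). Il18 had no gene above 0.17, with Zfp994 first. These are descriptions over cells that share libraries and depth.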

How the data were processed

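Lamina propria macrophages of 2 DEP and 2 PBS mice were profiled with 10x 3′ chemistry. Alignment was by Cell Ranger (mm10). The mice were combined at full depth and cells of extreme size or high mitochondrial content removed before the authors deposited raw UMI counts, not normalized, with the mouse given in the name of each cell. Of 12596 genes, 20 had no symbol. Positions are from GENCODE M21 (GRCm38) and promoters from RefSeq.

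Doublets were not removed here beyond the marker rule. UMIs were summed per mouse and class, filtered (over 1 CPM in 2 libraries, a UMI in 5% of cells) and tested with edgeR 4.0.16 in R 4.3.3 (TMM, quasi-likelihood, Benjamini-Hochberg over all genes tested, threshold 0.05), after tests on simulated data, with DESeq2 1.42.0 as an alternative. Where nothing says otherwise, mice were taken as separate replicates. Shares of cells have exact binomial intervals, and a share of 0 the limit that 3 cells give (Python 3.11.15, scipy 1.17.1).

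The members and all lists were chosen with earlier results of these data known. The text names all 10 members and, of the pathway list, genes past the threshold or else those of smallest p. Igkc, F13a1, H2-Aa, H2-Eb1, H2-Ab1, Cd74, Adgre1, Mrc1, Csf1r and the dendritic and neutrophil markers given singly were named after their values were seen.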

Additional observations from a re-analysis of the deposited data

Results flagged for a closer look

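For 3 genes the result stood out because the effect of DEP differed between Plac8-high and C1q-high cells by the interaction test of edgeR. The difference of the log2 DEP effects was 4.75 for Il1a, 0.86 for Il1b and 2.15 for Il1rn, and DESeq2 called none of them.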

How the results depend on the processing

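With 2 mice per group, the comparisons left 2 or 3 residual degrees of freedom, against totals of 12.2 to 11636 in edgeR. Its adjusted p-values therefore rest largely on a spread shared by all genes and little on that between these animals. The Plac8-high libraries held only 30 to 67 cells, so that genes at a few UMIs, Il1a, Il18 and Il18bp above all, limit what can be seen. No paired analysis was possible because the DEP and PBS mice share no animal or labelled number. The classes of a mouse are paired by animal, and without the replicate block again 3 members were called between them. Settings without immunoglobulin genes among the markers, without each member's highest cell, the thinned class shares, the source shares without the highest cell, and DESeq2 for the class and interaction tests were chosen after seeing the data. Members called numbered 0 over all retained cells, 0 in Plac8-high cells and 0 in C1q-high cells, 3 between the classes and 3 in the interaction. Without a filter on low counts 1 was called over all retained cells and 1 in Plac8-high cells, and with cells of both classes left out 1 in Plac8-high cells. Between the classes, thinned cells gave 1, where fewer genes could be tested, although Casp1 and Il1r2 were tested there and not called. DESeq2 gave 1 between the classes. In the interaction, all deposited cells, thinned cells and DESeq2 gave 0, and leaving out each member's highest cell gave 1. Leaving out 1 mouse gave 0 to 1 over all retained, Plac8-high and C1q-high cells, 2 to 4 between the classes and 0 to 2 in the interaction. The balance to Il1rn in C1q-high cells moved from −0.65 to −0.40 under stricter thresholds. The causes were not tested.

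Over single members, 520 alternative values kept direction and call, 24 lost a call, 12 gained one and 32 changed sign, none of them with a call. Leaving out 1 mouse changed the sign of some log2 differences, which then ranged as follows. Over all retained cells Il1a lay between −0.58 and 0.82, Il1b between −0.49 and 0.069, Il18bp between −0.78 and 1.39 and Casp1 between −0.0446 and 0.26. In Plac8-high cells Il1b lay between −0.22 and 0.43, Il1r2 between −6.18 and 0.07, Il18 between −0.25 and 0.47 and Pycard between −0.0025 and 0.23. In C1q-high cells Il1rn lay between −0.0733 and 0.75, Il18bp between −0.73 and 1.64 and Casp1 between −0.21 and 0.40. Between the classes Il1a lay between −0.30 and 1.65 and Il1b between −0.35 and 0.0569. In the interaction Il1r2 lay between −6.22 and 7.72, Il18bp between −4.62 and 4.96, Nlrp3 between −0.0913 and 0.19 and Casp1 between −1.03 and 0.22. In thinned cells Pycard was at −0.54 in Plac8-high cells and −0.29 between the classes. Without each member's highest cell, Il1a was at −0.15 and Pycard at −0.0193 between the classes, and Il1r2 at −0.0187 and Il18bp at 2.996 in the interaction, where stricter thresholds gave Il1r2 −0.21.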
